A study of Homo sapiens with 6 samples.

Results

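The peroxisome proliferator-activated receptors PPARG, PPARA and PPARD and 7 genes of fatty acid handling (FABP4, FABP5, CD36, PDK4, ANGPTL4, PLIN2 and CPT1A) were compared between brain-seeking 231-BR breast cancer cells and their parental MDA-MB-231 line. The 10 genes were taken by symbol, and all 10 were found among the 17039 genes of the expression table. RNA sequencing covered 3 libraries of each line. MDA-MB-231 is a human triple-negative breast cancer line, purchased from ATCC and grown in DMEM with fetal bovine serum and antibiotics, and 231-BR is a variant of it selected for metastasis to the brain, received from another laboratory and grown in the same medium with G418 added. The selection of the line, its separate passage and G418 cannot be told apart as sources of a difference. In one label the number in the name of the line is 231, 232 and 233 for replicates 1, 2 and 3 of both groups, while the titles name only the 2 lines, by which the libraries were grouped here. Whether the replicates were separate cultures is not stated in the sources used here, so p-values measure the spread between these libraries, which may be technical.

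The PPARs are nuclear receptors that are activated by fatty acids and their derivatives and bind DNA as partners of the retinoid X receptors (RXRs). PPARG drives the formation of fat cells and the storage of lipid, PPARA favours the burning of fatty acids in liver and other tissues, and PPARD is found in most tissues and also promotes fatty acid use. Genes whose products take up, carry, store or oxidise fatty acids are among the genes that these receptors are known to control, and the 7 other genes studied here belong to them in one tissue or another.

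Expression was given by the authors as FPKM, which divides the fragments of a gene by the length of its transcript and by the size of the library, so that levels of different genes can be set side by side. Summed over genes, FPKM was 465020 to 472007 for 231-BR and 486937 to 496420 for MDA-MB-231 libraries. Steps between the lowest values of genes with a single annotated transcript gave an estimate of 25.3 to 26.3 M fragments per library, and the ranges of the lines overlapped. Across genes that averaged 1 FPKM or more, the lowest correlation between libraries of a line was 0.997 and the highest between libraries of different lines was 0.902. A log2 fold change above 0 means a higher level in 231-BR cells. It is given on the log2(FPKM + 0.1) scale, which understates the change of low genes, and limma was run on the 13465 genes whose mean reached 0.1 FPKM. A gene was called at an adjusted p (Benjamini-Hochberg) under 0.05. The labelled cell type was checked on markers of the line. VIM, CD44, AXL, KRT8, KRT18, CAV2 and MSN were well above 1 FPKM in every library, where the mesenchymal filament gene VIM ranged over 2537–2566 FPKM (231-BR) and 2273–2325 FPKM (MDA-MB-231), and CDH1, the epithelial cadherin, was at most 0.03. SPARC, which was on the same list, stayed between 0.13 and 0.76 FPKM.

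The most changed of the 10 genes was PPARG, and its regulatory sequence is shown here beside that of PPARD, the receptor that led in the parental cells. PPARG has several transcription starts, and the deposited FPKM is a value for the whole gene, so the start in use was not measured. The bases before a start were taken from RefSeq (GRCh38.p14), 5′ to 3′ on the strand of the gene, and the half-site AGGTCA, to which nuclear receptors of this kind bind, was searched on both strands and is in capitals. For PPARG the outermost starts in the table are shown, at chr3:12287118-12287367 (upstream start) and chr3:12351167-12351416 (downstream start), and for PPARD chr6:35342308-35342557, all on the plus strand.
PPARG upstream start: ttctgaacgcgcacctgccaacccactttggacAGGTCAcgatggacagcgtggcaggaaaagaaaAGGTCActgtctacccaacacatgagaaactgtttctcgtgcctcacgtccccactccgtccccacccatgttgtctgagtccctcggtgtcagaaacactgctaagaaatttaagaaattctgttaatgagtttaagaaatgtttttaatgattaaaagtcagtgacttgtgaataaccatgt
PPARG downstream start: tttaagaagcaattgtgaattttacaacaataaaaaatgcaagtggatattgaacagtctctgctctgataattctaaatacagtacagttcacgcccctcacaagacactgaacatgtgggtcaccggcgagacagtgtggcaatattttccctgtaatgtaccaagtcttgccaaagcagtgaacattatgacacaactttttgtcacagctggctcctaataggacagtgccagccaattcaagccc
PPARD: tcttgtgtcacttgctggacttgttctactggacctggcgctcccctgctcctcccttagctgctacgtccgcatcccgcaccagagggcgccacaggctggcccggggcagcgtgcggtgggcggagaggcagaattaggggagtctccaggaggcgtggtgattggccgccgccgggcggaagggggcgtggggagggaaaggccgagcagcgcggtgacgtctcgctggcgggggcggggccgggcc

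Upstream of the first PPARG start, 2 copies of AGGTCA were found within 250 bases, and none was found before the downstream start or before PPARD. Over all promoters in the table, 12.1% of 35116 windows of this length held at least 1 copy. Of the 19 windows of the 8 genes searched, 3 held it, all 3 of them of PPARG. Of these, 2 windows share 240 bases and the same copy, so that the 3 windows hold 3 distinct copies. The direct repeat of this half-site with 1 base between the copies, the classical PPAR element, was in 0.0171% of all windows and in no window of these genes. A match is a description of the letters and does not show binding. FABP4 and FABP5 were not searched.

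Of the 10 genes, 6 were called higher in 231-BR cells (PPARG, PPARD, FABP4, FABP5, ANGPTL4 and PLIN2), and 1, CPT1A, was called lower. Of the 6, FABP4 rests on a few fragments and passed the filter only through the 231-BR libraries, and ANGPTL4 lost its call after quantile normalization. PPARA was tested and not called, and CD36 and PDK4 had a mean FPKM under 0.1 and were not tested. Calls were frequent in this comparison: 44.4% of all genes tested were called higher and 32.9% lower, a split of 57.4% higher among the calls that fell to 45.9% after quantile normalization. For 7 of the 8, FABP4 among them, the values of the lines lay apart, which held for 78.4% of all genes tested. PPARG was the only one of the 10 to pass the criteria of a differentially expressed gene (called, changed by more than 1 on the log2 scale, and averaging 1 FPKM or more in each line), which 4.68% of the genes tested passed upwards and 1.77% downwards.

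**Figure D1:**
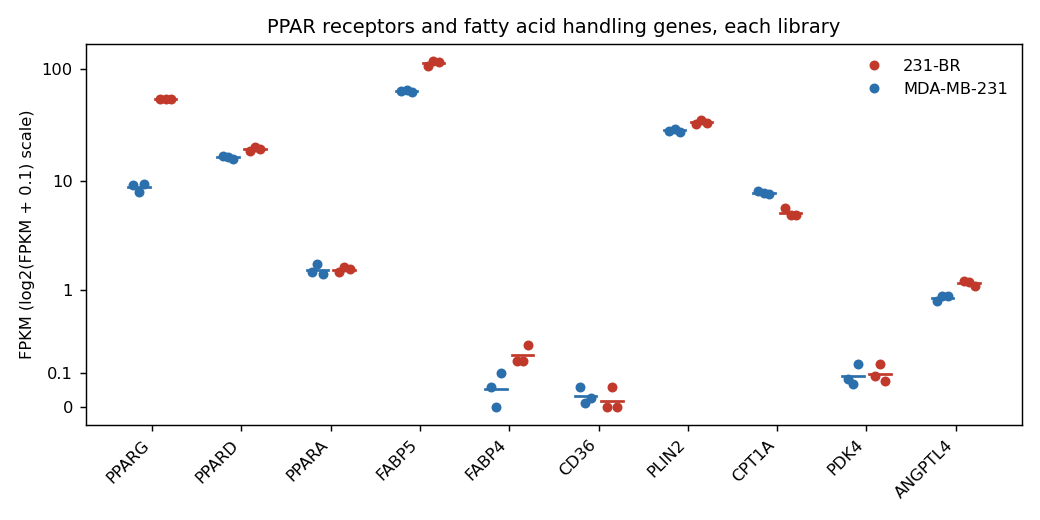
FPKM of the 10 genes on a log2(FPKM + 0.1) scale, with 1 point per library and a bar at the mean of the log2 values, for MDA-MB-231 (blue) and 231-BR cells (red). PPARG lies at 53.95 to 54.28 FPKM in 231-BR and at 7.98 to 9.41 FPKM in parental cells, while FABP4, CD36 and PDK4 lie near the floor in both lines.

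PPARG, the receptor of adipogenesis, rose 6.06-fold. The 231-BR libraries had 54.28, 53.95 and 53.95 FPKM, whereas the parental libraries had 9.18, 7.98 and 9.41 FPKM. The groups lay far apart and the 231-BR libraries were close to each other. The log2 fold change was 2.60 (95% interval 2.48 to 2.72, adjusted p = 1.02e-10 from limma), and under all alternatives tried it ran between 2.485 and 2.645. The study had placed PPARG in one of its hub groups on these libraries, so its direction is not independent evidence. A higher share of cells that express PPARG and a higher level per cell cannot be told apart in bulk RNA.

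PPARD, the widely expressed receptor, changed little in size. It had 18.52, 20.06 and 19.31 FPKM in 231-BR cells and 16.74, 16.42 and 15.84 FPKM in MDA-MB-231 cells. Every 231-BR library was above every MDA-MB-231 library, with a log2 fold change of 0.24 (95% interval 0.15 to 0.33, adjusted p = 0.000301 from limma). Median-of-ratios scaling, which shifted the median gene by -0.08, took it to 0.16 (adjusted p = 0.00437). PPARA, the receptor of fatty acid oxidation, had 1.47, 1.65 and 1.57 FPKM in 231-BR cells and 1.49, 1.76 and 1.41 FPKM in MDA-MB-231 cells. These values overlapped, and the log2 fold change was 0.01, with a 95% interval from -0.22 to 0.24. After quantile normalization, which shifted the median gene by -0.14, PPARA was called lower with a log2 fold change of -0.38 (adjusted p = 0.00549).

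The make-up of the PPAR transcripts differed between the lines. PPARG held 73.1%, 71.3% and 72.1% of the summed FPKM of the 3 receptors in the 231-BR libraries. It held 33.5%, 30.5% and 35.3% in the parental libraries, where PPARD was the most abundant receptor. The difference of the means was 39.1 percentage points. The share was higher in 3 of 3 libraries, and the 2-sided exact permutation test gave p = 0.1, the smallest that 3 libraries against 3 allow.

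**Figure D2:**
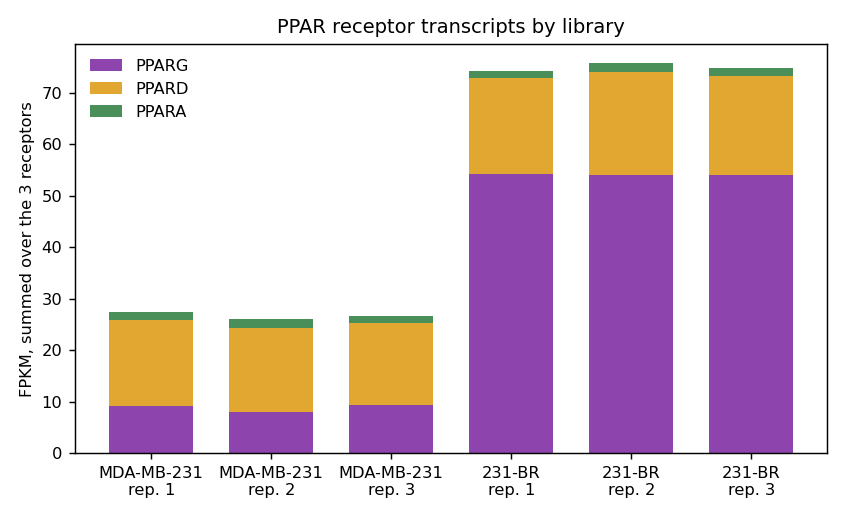
FPKM of PPARG, PPARD and PPARA stacked in each of the 6 libraries. PPARG makes up 71.3% to 73.1% of the bar in 231-BR and 30.5% to 35.3% in parental libraries, whereas the PPARD part runs only from 15.84 to 20.06 FPKM.

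Fatty acid carriers were led by FABP5, the epidermal fatty acid binding protein, which brings fatty acids to the nucleus and is known as a partner of PPARD. FABP5 was the most abundant of the 10 genes in both lines. It had 106.99, 116.99 and 115.65 FPKM in 231-BR cells and 64.32, 65.66 and 62.93 FPKM in MDA-MB-231 cells. The groups did not overlap, and the log2 fold change was 0.81 (95% interval 0.74 to 0.89, adjusted p = 1.41e-08 from limma), short of the fold criterion. FABP5 has intronless pseudogene copies in the genome, and how reads shared with them were counted is not given in the sources used here.

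FABP4, the fatty acid binding protein of adipocytes and a classical PPARG target, was barely detected. It had 0.16, 0.16 and 0.26 FPKM in 231-BR cells and 0.05, 0 and 0.10 FPKM in MDA-MB-231 cells. By the estimate above and the longest annotated transcript, 1 fragment of FABP4 was worth 0.0452 to 0.0470 FPKM, so that these values stand for about 0 to 5.7 fragments. The call (log2 fold change 1.01, adjusted p = 0.00769 from limma) rests on those few fragments, and the gene passed the filter only through the 231-BR libraries. Its log2 fold change was 0.185 with a pseudocount of 1 and 2.30 with 0.01, and without 231-BR replicate 3 it was not tested.

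CD36, the fatty acid translocase of the plasma membrane, was listed at 0, 0.05 and 0 FPKM in 231-BR cells and at 0.05, 0.01 and 0.02 FPKM in MDA-MB-231 cells. The values overlapped and, with the longest annotated transcript, stood for at most about 8 fragments in a library. Without the filter on low values the log2 fold change was -0.13 (adjusted p = 0.587 from limma).

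Among genes of fatty acid storage and use, PLIN2, the perilipin that coats lipid droplets in most cell types, was well expressed. It had 32.77, 34.96 and 33.39 FPKM in 231-BR cells and 28.39, 29.34 and 27.53 FPKM in MDA-MB-231 cells. The groups did not overlap but lay near each other, and the log2 fold change was 0.25 (95% interval 0.17 to 0.33, adjusted p = 0.000111 from limma), or 0.16 after median-of-ratios scaling (adjusted p = 0.00194). CPT1A, which carries long-chain fatty acids into mitochondrial oxidation at its rate-controlling step, went the other way. It had 5.75, 4.94 and 4.95 FPKM in 231-BR cells and 8.19, 7.81 and 7.71 FPKM in MDA-MB-231 cells. Every 231-BR library was lower, with a log2 fold change of -0.59 (95% interval -0.74 to -0.45, adjusted p = 1.49e-05 from limma).

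PDK4, the kinase that closes pyruvate dehydrogenase when fatty acids are burned, is induced by PPARs in muscle and liver. Here it had 0.09, 0.14 and 0.07 FPKM in 231-BR cells and 0.08, 0.06 and 0.14 FPKM in MDA-MB-231 cells. With the longest annotated transcript these stand for about 5.3 to 12.8 fragments per library. The values overlapped, and without the filter on low values its log2 fold change was 0.06 (adjusted p = 0.82). ANGPTL4, a secreted inhibitor of lipoprotein lipase, had 1.23, 1.20 and 1.10 FPKM in 231-BR cells and 0.77, 0.87 and 0.88 FPKM in MDA-MB-231 cells. The groups did not overlap, with a log2 fold change of 0.44 (95% interval 0.21 to 0.67, adjusted p = 0.00283 from limma), but it was 0.24 with a pseudocount of 1 and, after quantile normalization, 0.00 (adjusted p = 0.985).

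In MDA-MB-231 cells the levels in FPKM fell in the order FABP5, PLIN2, PPARD, PPARG, CPT1A, PPARA, ANGPTL4, with PDK4, FABP4 and CD36 below. PPARG and CPT1A overlapped there, as did PDK4 with FABP4 and FABP4 with CD36. In 231-BR cells the order was FABP5, PPARG, PLIN2, PPARD, CPT1A, PPARA, ANGPTL4, FABP4, PDK4 and CD36, and no neighbours in it overlapped. PPARG thus stood between FABP5 and PLIN2 in 231-BR cells and beside CPT1A in the parental line, while the order of the other genes down to ANGPTL4 was the same in both.

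The changes were set beside those of neighbouring genes on the chromosome. For PPARG on chromosome 3 the 40 nearest expressed genes had a median log2 fold change of -0.07, for PPARD on chromosome 6 it was -0.11, and for PLIN2 on chromosome 9 it was -0.17. These genes thus rose where their neighbours on the whole did not. FABP4 and FABP5 lie close together on chromosome 8, where the medians of the neighbours were 0.24 and 0.22, below the values of both genes. For ANGPTL4 on chromosome 19 the neighbours had a median of 0.83, with 37 of 40 called higher, and its own value of 0.44 was lower than that. CPT1A on chromosome 11, at -0.59, was also below its neighbours at -0.15, and PPARA on chromosome 22, at 0.01, was above its neighbours at -0.23. The part of the neighbourhood in these changes was not tested.

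**Figure D3:**
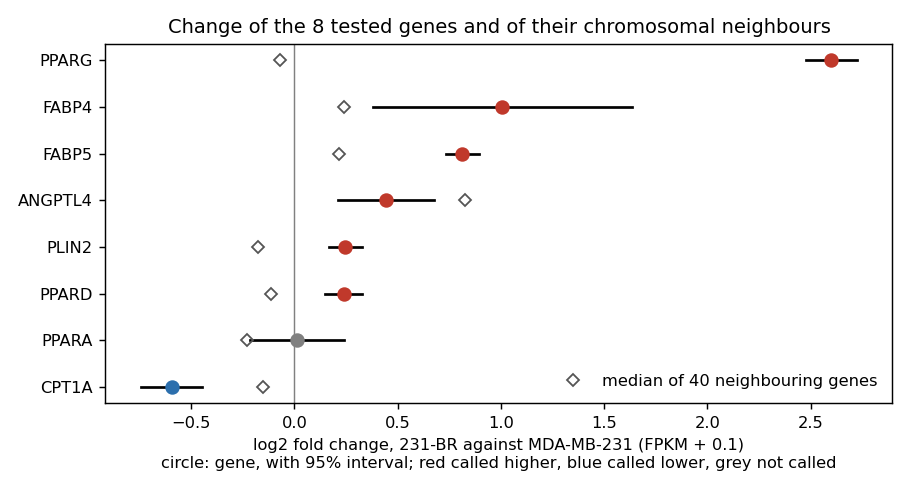
Log2 fold change of the 8 tested genes (circles, with the 95% interval; red called higher, blue called lower, grey not called) and the median of the 40 neighbouring genes of each (open diamonds). PPARG at 2.60 is far to the right of its neighbours at -0.07, and ANGPTL4 at 0.44 lies to the left of its neighbours at 0.83.

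Partners and coregulators of the PPARs did not move one way. Of 17 genes listed, 16 were tested, and 6 were called higher and 7 lower (37.5% and 43.8%, against 44.4% and 32.9% of all genes tested). The median log2 fold change was -0.02 (0.09 without the filter on low values), against 0.08 for all genes tested. RXRA, an obligate partner of the PPARs on DNA, was at 5.90 ± 0.0814 FPKM in 231-BR against 10.4 ± 0.257 FPKM (SD, n = 3) in parental cells and was called lower. RXRB rose from 14.4 to 18.6 FPKM, and RXRG was at most 0.02 FPKM. The adipogenic factor CEBPB had a log2 fold change of -0.83, the coactivator MED1 of 0.48 and the corepressor NRIP1 of 0.94. CEBPA, which maintains PPARG in fat cells, was called higher, at 0.54 FPKM in 231-BR against 0.227 FPKM in parental cells. Its log2 fold change was 0.99, and it stayed under 1 FPKM in every library. So the receptor and both of its expressed partners were called, RXRA in the opposite direction to PPARG.

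Other genes known as PPAR targets were mostly called higher. Of 22 listed, 18 had a row in the table and 12 were tested, with 10 higher and 2 lower (83.3% and 16.7%, where all genes tested gave 44.4% and 32.9%) and a median of 0.83, which was 0.52 with a pseudocount of 1 and 0.48 without the filter. ABCA1, at 0.243 FPKM in 231-BR against 0.04 FPKM in parental cells, is among the 10 and passed the filter only through the 231-BR libraries. The list was chosen with earlier results of these data known. SCD, the fatty acid desaturase, rose by 2.23 on the log2 scale, from 30.5 ± 0.562 to 143 ± 4.5 FPKM (SD, n = 3), and PLTP, the phospholipid transfer protein, rose from 0.517 to 4.09 FPKM. The transcription factor KLF15 had a log2 fold change of 1.43. ME1, the malic enzyme that makes NADPH, and ACSL1, an acyl-CoA synthetase, were the 2 called lower, at -0.98 and -0.38. LPL and ADIPOQ, targets that define the fat cell, were at most 0.01 and 0.02 FPKM. The list held both strongly raised genes and targets that neither line expressed.

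For fatty acid uptake, binding and activation, 8 of 15 genes tested were called higher and 2 lower (53.3% and 13.3%, against 44.4% and 32.9% of all genes tested), with a median of 0.83 against 0.08. FABP6 is among the 8 and passed the filter only through the 231-BR libraries. With the filter at a mean of 1 FPKM, which left fewer genes of the list tested, 4 were called higher and the median was 0.49. The median was 0.35 with a pseudocount of 1, 0.38 after quantile normalization and 0.55 without MDA-MB-231 replicate 1. ACSL4, which activates polyunsaturated fatty acids, rose from 37.4 ± 1.03 to 84.5 ± 1.97 FPKM (SD, n = 3 each), SLC27A1 rose from 1.33 to 3.59 FPKM and SLC27A3 rose from 0.177 to 1.11 FPKM. ACSL5 fell from 47.9 to 27.2 FPKM and SLC27A4 fell from 25.6 to 19.6 FPKM. Of the binding proteins, FABP5 held 98.2% to 98.9% of the summed FABP FPKM in 231-BR and 99.3% to 99.8% in parental libraries (2-sided exact permutation p = 0.1, the smallest possible). FABP6, the ileal bile acid binding protein, and FABP3, the heart isoform, made up most of the rest in 231-BR cells and were singled out here after their values were seen. FABP6 had 0.96, 0.56 and 1.10 FPKM in 231-BR cells and was listed at 0 in all 3 parental libraries. FABP3 had 0.86, 0.63 and 0.67 FPKM in 231-BR and 0.09, 0.20 and 0.37 FPKM in parental libraries. FABP5 was thus nearly the whole of this family in both lines.

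Lipid droplet and triglyceride genes were called in both directions, 10 higher and 7 lower of 18 tested. These are 55.6% and 38.9%, against 44.4% and 32.9% of all genes tested. The median was 0.23, and 0.00 after quantile normalization. G0S2, an inhibitor of the triglyceride lipase PNPLA2, rose by 2.32 on the log2 scale (adjusted p = 1.63e-12 from limma), from 120 ± 1.17 to 601 ± 11.8 FPKM (SD, n = 3). DGAT2, which makes triglycerides, rose from 1.65 to 4.01 FPKM, and MGLL, which cleaves monoglycerides, from 14.9 to 27.3 FPKM. LPIN3 fell from 1.61 to 0.473 FPKM, CIDEC from 1.96 to 1.17 and FITM2 from 8.15 to 5.23. The other perilipins gave no common picture with PLIN2, as PLIN3 had 47.8 FPKM in MDA-MB-231 and 38.0 FPKM in 231-BR cells and was called lower, and PLIN1 and PLIN4 were at most 0.07 FPKM.

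Fatty acid oxidation genes, beside CPT1A, were also mixed, with 11 of 24 called higher and 8 lower. These are 45.8% and 33.3%, near the 44.4% and 32.9% of all genes tested, and the median of 0.07 was close to that of all genes. The CPT1 isoforms differed from each other. CPT1B, the muscle isoform, had a log2 fold change of -0.44, and CPT1C, the brain isoform, had 3.35, 3.49 and 4.03 FPKM in 231-BR cells and 0.79, 0.57 and 0.63 FPKM in MDA-MB-231 cells, a log2 fold change of 2.29 (adjusted p = 5.85e-08 from limma). Thus CPT1C was called higher where CPT1A and CPT1B were called lower. ACAA2 and EHHADH, enzymes of the mitochondrial and peroxisomal pathway, rose with log2 fold changes of 1.12 and 1.10. ECI1, ACADVL and ETFB fell by 0.75, 0.51 and 0.44 on the log2 scale.

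PDK4 is 1 of 4 pyruvate dehydrogenase kinases, and the others were expressed. PDK2 rose from 4.04 ± 0.465 to 10.2 ± 0.157 FPKM and PDK1 fell from 7.79 ± 0.516 to 4.43 ± 0.191 FPKM (SD, n = 3 each), while PDK3 had 2.33 and 2.50 FPKM and was not called. Of the 10 kinases, phosphatases and subunits of the complex, 6 were called higher and 2 lower (60% and 20%, against 44.4% and 32.9% of all genes tested). DLAT was at 0.50, PDP2 at 0.53 and PDHA1 at -0.54 on the log2 scale. Of the genes around lipoprotein lipase, the enzyme that ANGPTL4 inhibits, 5 of 11 with a row were tested. LIPG, the endothelial lipase, rose from 1.47 to 2.08 FPKM, and VLDLR fell from 4.84 to 1.25 FPKM and ANGPTL2 from 1.85 to 0.793 FPKM.

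**Figure D4:**
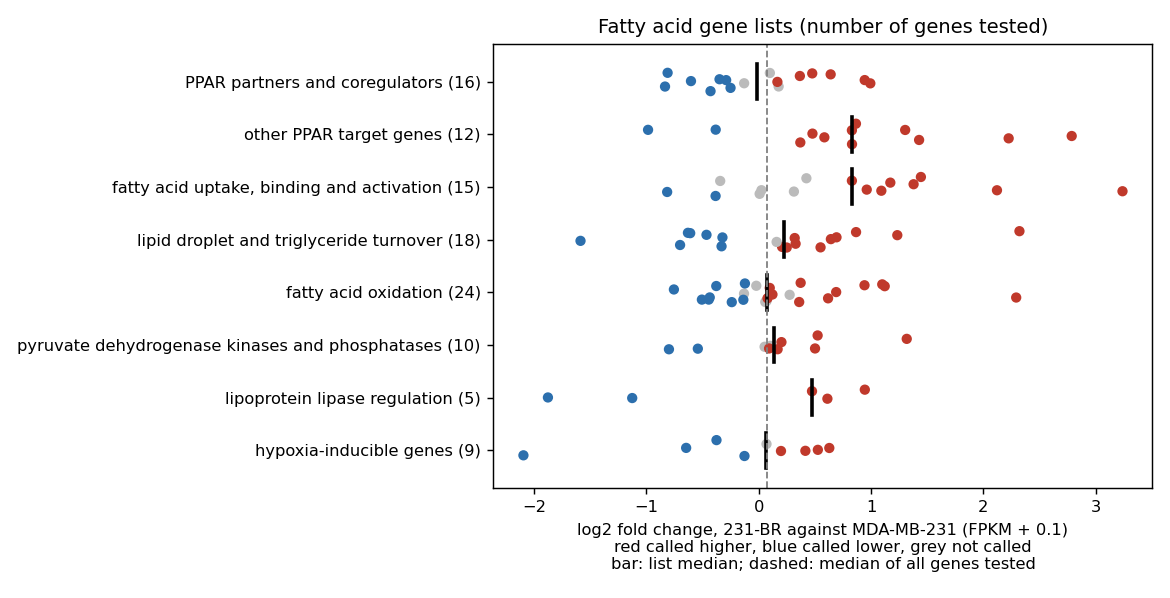
Log2 fold change of each tested gene (points; red called higher, blue called lower, grey not called) in 8 lists, with the list median (bar) and the median of all genes tested at 0.08 (dashed line). The medians of other PPAR target genes and of uptake, binding and activation are both 0.83, and those of fatty acid oxidation and of partners and coregulators are 0.07 and -0.02.

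PLIN2 and ANGPTL4 are also known to rise in low oxygen, and FABP4, CD36 and PPARG are found in fat cells, macrophages and endothelium, so markers of these were measured beside them. Of 9 tested genes that low oxygen induces, 4 were called higher and 4 lower (44.4% each, against 44.4% and 32.9% of all genes tested). On the log2 scale SLC2A1, ADM and ANKRD37 (whose libraries overlapped) were at 0.63, 0.53 and 0.42. VEGFA, PFKFB4 and EGLN3 were at -2.09, -0.65 and -0.38. ANKRD37 lost its call under 9 alternatives, among them the omission of 231-BR replicate 2 or 3 or MDA-MB-231 replicate 2 or 3 (0.29 to 0.42, adjusted p = 0.0765 to 0.136 from limma). EGLN3 lost it without 231-BR replicate 1 (-0.31, adjusted p = 0.0604) or MDA-MB-231 replicate 3 (-0.29, adjusted p = 0.063). The 8 adipocyte markers with a row summed to 7.39–7.47 FPKM in 231-BR and 6.18–7.08 FPKM in parental cells, mostly from LIPE, CIDEC, CFD and ADIRF. The 5 tested were called 3 higher and 2 lower (60% and 40%, against 44.4% and 32.9% of all genes tested). SLC2A4, the insulin-responsive glucose transporter, rose from 0.0133 to 0.667 FPKM. It is among the 3 called higher and passed the filter only through the 231-BR libraries. CFD and LIPE rose by 1.33 and 0.64 on the log2 scale, while CIDEC and ADIRF fell by 0.70 and 0.67. The defining ADIPOQ and PLIN1 were at most 0.02 and 0.04. Of these 8, 4 also stand on the lipid lists above (LIPE, PLIN1, CIDEC and ADIPOQ). The 8 macrophage markers summed to 0.54 to 0.64 and 0.60 to 0.82 FPKM, with PTPRC at most 0.04. The 10 endothelial markers summed to 85.9–87.8 FPKM in 231-BR and 113–118 FPKM in parental cells, nearly all from ESAM and TIE1, while CDH5 and VWF were at most 0.03. ADIPOQ, PLIN1, PTPRC, CDH5 and VWF were thus at or near 0 in both lines, but other markers of the same lists were not. SLC2A4 and the endothelial PECAM1 reached 0.76 and 0.48 FPKM, and the macrophage markers LYZ and CD14 reached 0.57 and 0.27 FPKM. CFD, LIPE, CIDEC, ADIRF, KDR, TIE1 and ESAM averaged over 1 FPKM in at least 1 line. The part of the other markers in the changes of the 10 genes was not tested.

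By the distance between log2 profiles over the 6 libraries, each centred on its mean, the genes most like PPARG among 10547 that averaged 1 FPKM or more in each line were EFNB1, XK and PEG10. Their distances were 0.0919, 0.113 and 0.16, and their log2 fold changes were 2.56, 2.66 and 2.62. With 2 groups of libraries this likeness is mostly that of the difference between the lines.

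The calls were recomputed under alternative scalings, pseudocounts, filters and sets of libraries. PPARG, PPARD, FABP5, PLIN2 and CPT1A kept their direction and call under every alternative that tested them.

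**Figure D5:**
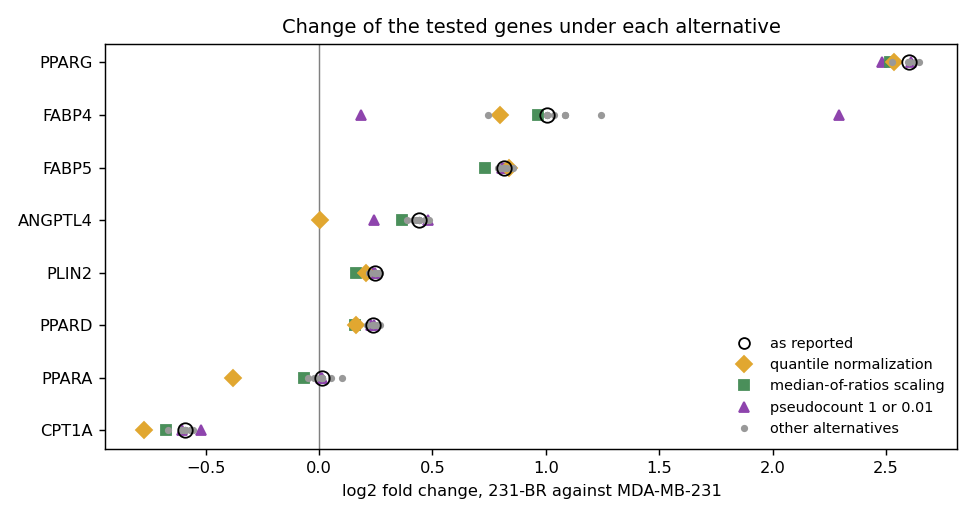
Log2 fold change of the 8 tested genes as reported (open circles) and under quantile normalization (diamonds), median-of-ratios scaling (squares), pseudocounts of 1 or 0.01 (triangles) and the other alternatives (small points). FABP4 runs from 0.185 to 2.30 with the pseudocount, and quantile normalization takes ANGPTL4 to 0.00 and PPARA to -0.38.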

How the data were processed

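Poly(A) RNA was sequenced in 3 libraries of either line (231-BR, MDA-MB-231). Per the submitters' processing notes, HISAT2 2.0.4 and Bowtie2 2.2.5 were used, and the build was GRCh38.p12. The authors deposited expression as FPKM per gene with 2 decimals. Reads had been filtered, mapped to the genome with HISAT2 and aligned with Bowtie2 to a gene set of the sequencing company. Its release and the program that computed FPKM are not given in the sources used here. No read counts were used, so no count model was fitted. Fragments per library were estimated from the spacing of low FPKM values multiplied by the length of genes with 1 GENCODE release 29 transcript, less 100 bases. Fragments of FABP4, CD36 and PDK4 were derived from it with the longest transcript of each. They are rough, as the gene lengths used by the authors are not given in the sources used here.

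The line was the single term of a limma model (version 3.58.1 in R 4.3.3) of log2(FPKM + 0.1), fitted to all 13465 genes that averaged 0.1 FPKM or more. Variances were moderated with a trend on the mean level, and p-values were adjusted over all these genes (Benjamini-Hochberg). The fit was tested on simulated data with independent noise and few changed genes, so that run does not bear on the share of genes called here or on the scaling. 25 symbols turned into dates by a spreadsheet were replaced through their identifiers. Gene order came from RefSeq (GRCh38.p14), with 20 expressed neighbours on either side. All columns of samples were used. Figures were drawn with Python 3.11.15 and matplotlib 3.10.9.

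The members and lists were chosen with earlier results of these data known. Named from each list were the up to 3 called genes with the largest change in each direction that averaged 1 FPKM or more in a line, and marker genes above 1 FPKM. Some genes of the lists are not reported here. Others are named as family members or for a role stated beside them. Same-numbered libraries had correlations of their deviations from the line means of 0.087, -0.040 and -0.106, so the numbers were not used as pairs. Alternatives were pseudocounts of 1 and 0.01, no filter, a mean FPKM of at least 1, median-of-ratios scaling, quantile normalization, no trend, a replicate term and each library left out.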

Additional observations from a re-analysis of the deposited data

How the results depend on the processing

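Counts of called genes stayed within 1.5 times their reported value in 264 recomputations and moved further in 3. After quantile normalization 2 of the 10 genes were called lower (PPARA at -0.378 and CPT1A) and 1 gene of lipoprotein lipase regulation was called higher, and with a mean FPKM of at least 1 as the filter, which removes genes, 4 genes of fatty acid uptake, binding and activation were called higher. List medians close to 0 changed sign: partners and coregulators 0.088 without a filter, lipid droplet genes -0.001 after quantile normalization, fatty acid oxidation -0.008 and -0.029 and hypoxia-inducible genes -0.012 and -0.037 after median-of-ratios scaling and quantile normalization, and lipoprotein lipase regulation -0.325 with a mean FPKM of at least 1. The cause was not tested. ANGPTL4 and LIPG lost their call after quantile normalization, EGLN3 without 231-BR replicate 1 or MDA-MB-231 replicate 3, and ANKRD37 under 9 alternatives. With a replicate block 6 of the 10 genes were called higher and 1 lower, as without it, and 6015 genes in all were called higher and 4487 lower. The libraries did not all correlate best with their own number. With 1 library left out, the difference in the PPARG share ran from 37.8 to 40.2 percentage points. Depth limits FABP4, CD36 and PDK4, at most about 12.8 fragments per library.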

Other observations

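Markers of luminal breast epithelium, which belong in no comparison of fatty acid genes, were also measured. Of 7 listed, 5 were tested and 4 were called higher in 231-BR cells, where 44.4% of all genes tested were. FOXA1, a luminal pioneer factor, rose from 0.840 ± 0.105 to 5.47 ± 0.243 FPKM, and GATA3 rose from 0.433 ± 0.1 to 1.24 ± 0.166 FPKM (SD, n = 3 each). ERBB2 rose from 4.95 to 9.88 FPKM and EPCAM from 5.06 to 8.70 FPKM. The estrogen receptor gene ESR1 had 0.927 FPKM in 231-BR and 0.790 FPKM in MDA-MB-231 cells and was not called. PGR, the progesterone receptor gene, and CDH1 were at most 0.07 and 0.03 FPKM and were not tested. The keratin genes KRT8 and KRT18 are from the list of markers of the line, of which 3 were called higher and 5 lower. Both keratin genes were called lower in 231-BR cells, from 237 to 176 FPKM and from 352 to 273 FPKM. TIE1, a receptor of endothelial cells, rose from 5.85 to 37.1 FPKM, KDR rose from 0.523 to 1.52 FPKM and ESAM fell from 109 to 47.8 FPKM, while CDH5 stayed at or under 0.03 FPKM.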
